A study of Bos taurus with 18 samples.

Results

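The enzymes that attach ubiquitin to proteins and take it off again were followed in female and male bovine blastocysts of 3 bulls. The genes were taken by symbol: those whose names begin with UBE2, UBE3, UBE4, USP, UCHL or OTUD, and those named UBA followed by a number, wherever the array annotation lists that gene alone for a probe set. This gave 68 genes of 9155 measured, represented by 98 of 24016 probe sets, and each gene was read from its probe set with the highest mean over all arrays. They comprise 5 activating enzymes (UBA), 26 conjugating enzymes (UBE2), 5 ligases (UBE3 and UBE4), 27 ubiquitin-specific proteases (USP) and 5 deubiquitinases named UCHL or OTUD. On the chromosome table used, UBA1, UBE2A, USP11 and OTUD5 lie on the X chromosome, 63 genes lie on autosomes, and USP53 has no chromosome.

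Ubiquitin is a small protein that is linked to other proteins in a relay. An activating enzyme (E1) charges it, a conjugating enzyme (E2) carries it, and a ligase (E3) places it on the target, which can mark the target for the proteasome or change its activity. Deubiquitinases cut it off again, and in early embryos the system is known for clearing maternal proteins and driving the cell cycle. Some of the same enzyme families handle ubiquitin-like proteins such as SUMO, NEDD8 and ISG15. Female mammals carry a pair of X chromosomes and males a single one, so that X-linked members are read apart from autosomal ones.

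The embryos were of a genotype labelled mixed breed and were made in vitro with sex-sorted semen of bull 1, bull 2 or bull 3, with no other treatment named. On day 7 after insemination 60 blastocysts of the same sex and sire were pooled and frozen, and 50 ng of RNA from each pool was amplified for its array. Female and male pools of each bull thus formed 6 groups of 3 arrays, with 9 arrays per sex. Values are log2 expression values, so that a difference of 1 is a doubling, and sex and bull differences are taken between values of the same probe set. Percentiles and sums of marker genes set different probe sets side by side and are rough guides only. Each bull is a single sire, so that bull and any batch tied to it cannot be told apart, and the labels do not state separate fertilisation runs for the pools of a group, so that p-values cover only pool-to-pool spread. In pools of whole embryos, fewer cells of a type and less RNA per cell cannot be told apart.

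XIST, the RNA of the inactive X chromosome, was higher on every female array (8.87 or above) than on any male array (7.28 or below). POU5F1, KRT18 and GATA6, from the marker lists of the inner cell mass, trophectoderm and primitive endoderm, stood at or above the 98.8th percentile of all probe sets. The other genes of these lists stood between the 44th (ASCL2) and the 89.3rd (STAT3). The marker lists of other cells were also spread widely: cumulus and granulosa genes stood between the 1.43rd (PTX3) and the 93.3rd (HAS2), blood genes between the 9.36th (PTPRC) and the 77.9th (HBB), oocyte genes between the 26.3rd (GDF9) and the 78.2nd (OOEP), and sperm genes between the 10.2nd (AKAP4) and the 89.8th (ODF2). Lineage markers differed between the sexes too: 2 of 5 trophectoderm genes were higher in males (TFAP2A at -0.54 and ASCL2 at -0.42 log2), 2 of 4 inner cell mass genes higher in females (SPP1 at 0.56 and STAT3 at 0.28), and 1 of 3 primitive endoderm genes higher in males (GATA4 at -0.22). The summed level of the trophectoderm list spanned 13.96 to 14.15 in females and 13.94 to 14.16 in males, that of the inner cell mass list 12.24 to 12.41 and 12.20 to 12.42, and that of the primitive endoderm list 12.42 to 12.63 and 12.35 to 12.60 (log2 of the summed linear values). Of the markers of other cell types, 4 of 11 cumulus and granulosa genes, 3 of 4 blood genes, 1 of 6 oocyte genes and 4 of 5 sperm genes differed between the sexes, beside the same 20.8% of all genes. They did so in both directions except for the oocyte gene. The summed level of the cumulus list spanned 10.7 to 11.0 in females and 10.8 to 11.1 in males, that of the blood list 7.73 to 9.53 and 7.63 to 8.73, that of the oocyte list 8.49 to 9.03 and 8.28 to 8.75, and that of the sperm list 9.84 to 10.1 and 9.87 to 10.2. Each sum is weighted to the brightest gene of its list (KRT18, POU5F1, GATA6, HAS2, HBB, OOEP and ODF2). It can thus hide differences in dimmer genes, and overlapping sums do not show equal cell content. The part of these cell types in the differences below was not tested. On 4 arrays (female bull 1 replicate 3, male bull 1 replicate 2, male bull 2 replicate 1 and male bull 3 replicate 3) the spread of values around the probe set medians was wide, with an interquartile range over 0.25.

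The first question was whether the enzymes differed between the sexes. Of the 68 genes, 17 passed the test (limma with Benjamini-Hochberg adjustment over all probe sets, adjusted p under 0.05), 8 higher in females and 9 higher in males. The share of 25% stands beside 20.8% of all 9155 genes read in the same way (11.5% higher in females and 9.31% higher in males) and 15.6% of all probe sets (8.12% and 7.47%), so that the enzymes were near the background of these embryos. Their median sex difference was -0.00014 log2, against -0.015 over all genes, and their median absolute difference was 0.105, against 0.0988. The 17 genes kept the sign of their difference within each of the 3 bulls, as did 99.1% of all genes that passed. Most differences were small: 12 of the 17 were under 0.35 log2, and only UCHL1 exceeded 1 log2. Without the 4 arrays of wide spread 21 genes passed, 12 higher in females and 9 in males.

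**Figure D1:**
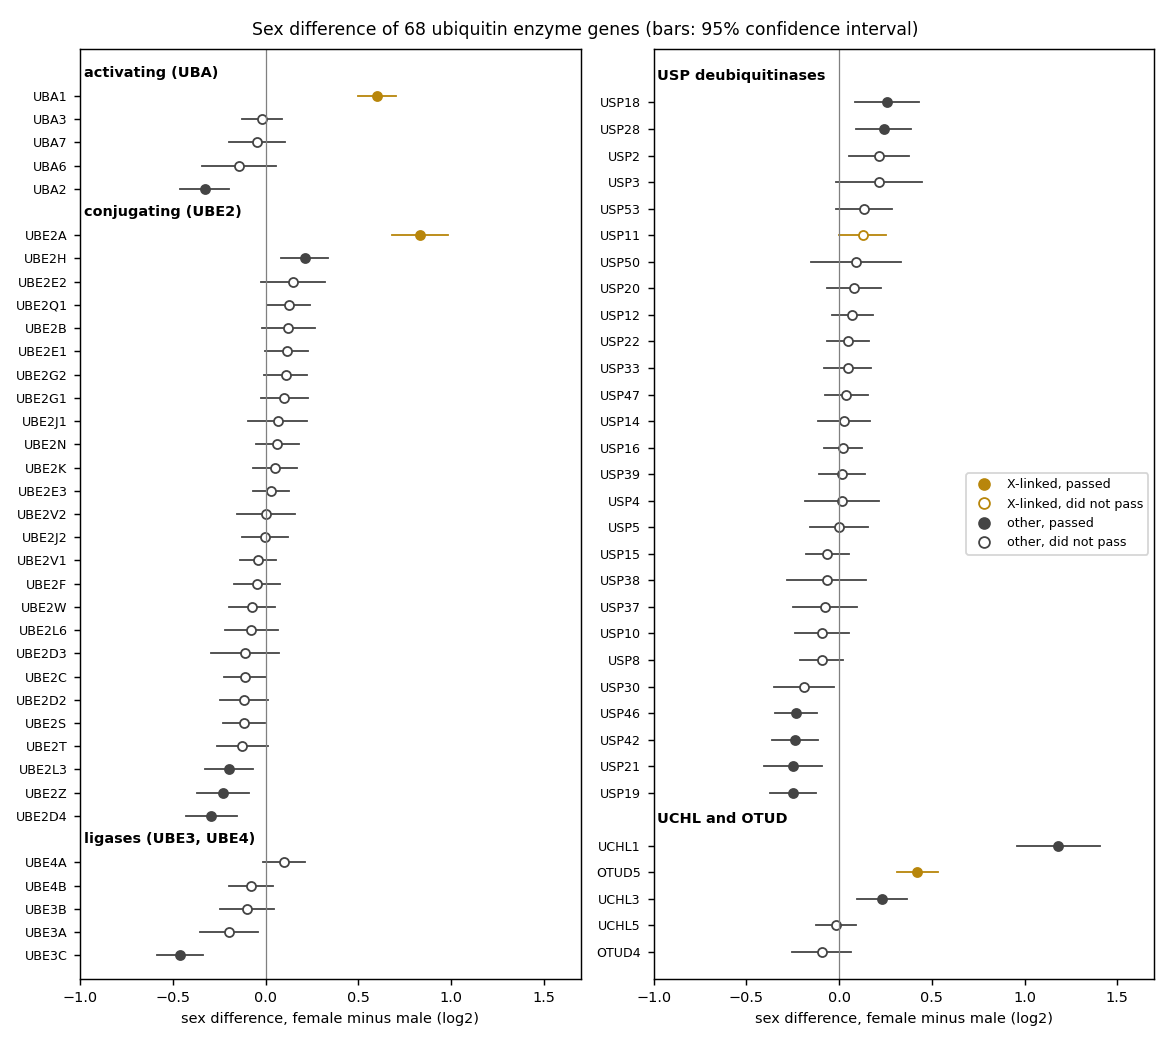
Sex difference (female minus male, log2, horizontal axis) of each of the 68 genes by enzyme class; points are the fitted differences over 18 arrays and bars their 95% confidence intervals, with filled points for the 17 genes that passed. UCHL1, UBE2A, UBA1 and OTUD5 stand farthest to the female side and UBE3C and UBA2 farthest to the male side, and most other genes lie close to 0.

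Among the activating enzymes, UBA1 was higher in females and UBA2 higher in males. UBA1, the main E1 that charges ubiquitin, ranged from 11.21 through a median of 11.25 to 11.37 on the female arrays and from 10.52 through 10.60 to 10.86 on the male arrays. The sexes did not overlap, and the gap between them exceeded the range within either. The difference was 0.60 ± 0.05 log2 (SE), a 1.51-fold excess in females (adjusted p = 1.09e-07, limma), and it was 0.63, 0.66 and 0.50 in bulls 1, 2 and 3. UBA1 passed within each bull on its own (adjusted p = 0.000279, 0.000146 and 0.00167, limma).

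UBA2, the catalytic subunit of the SUMO-activating enzyme, ran the other way. Its female arrays spanned 10.79 to 11.12 with a median of 10.95, and its male arrays 10.98 to 11.57 with a median of 11.34. The highest females and the lowest males overlapped. Males were higher by 1.26-fold (difference -0.33 ± 0.06 log2, adjusted p = 0.000979, limma), with -0.43, -0.25 and -0.30 in bulls 1, 2 and 3, and it passed within bull 1 only. The other activating enzymes did not pass: UBA6, the second ubiquitin E1, had a difference of -0.14 (95% confidence interval -0.34 to 0.06). UBA7, which charges ISG15, had -0.05 (-0.20 to 0.11). UBA3, the catalytic subunit of the NEDD8-activating enzyme, had -0.02 (-0.12 to 0.09), which leaves little room for a difference of the size seen in UBA1.

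Among the 26 conjugating enzymes, 5 passed, 2 higher in females and 3 higher in males. This is 19.2%, beside 20.8% of all genes. The median difference of the class was 0.00 log2. UBE2A led by far. It is an E2 of DNA damage tolerance and histone H2B ubiquitination, also known as RAD6A. On the female arrays it ranged from 10.50 to 11.01 with a median of 10.57, and on the male arrays from 9.51 to 10.16 with a median of 9.79, without overlap. The difference was 0.83 ± 0.07 log2 or 1.78-fold (adjusted p = 2.17e-07, limma), with 0.79, 0.80 and 0.91 in the 3 bulls, each of which passed (adjusted p = 0.00108, 0.000899 and 0.000296, limma). A second probe set of UBE2A gave 0.85.

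UBE2H, an E2 that works with the CTLH ligase complex, was the other conjugating enzyme higher in females. Its arrays overlapped between the sexes, at 7.83 to 8.13 (median 8.03) in females and 7.49 to 7.96 (median 7.80) in males. The difference was 0.21 ± 0.06 log2 (adjusted p = 0.0205, limma), and its second probe set passed as well, at 0.28 (adjusted p = 0.0317, limma). UBE2A and UBE2H were the only genes with several probe sets of which every one passed.

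UBE2D4, a member of the UBE2D family that serves many RING ligases, was higher in males by 1.23-fold. It ranged from 5.62 to 5.99 (median 5.77) in females and from 5.59 to 6.24 (median 6.16) in males, the lowest male array lying below all females. That array came from bull 2, where the difference was -0.13, against -0.41 in bull 1 and -0.34 in bull 3. Over all bulls it was -0.29 ± 0.07 log2 (adjusted p = 0.00382, limma). A second, dimmer probe set of UBE2D4 did not pass, at -0.13 (adjusted p = 0.401, limma). It lay at 4.31 or below on all arrays, under the array medians of 5.33 to 5.49.

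UBE2Z, an E2 charged by UBA6, and UBE2L3, which passes ubiquitin to HECT and RING-between-RING ligases, were higher in males by smaller amounts. UBE2Z spanned 9.11 to 9.30 (median 9.23) in females and 9.04 to 9.65 (median 9.52) in males, a difference of -0.23 (adjusted p = 0.022, limma). UBE2L3 spanned 8.24 to 8.57 (median 8.39) in females and 8.45 to 8.88 (median 8.50) in males, a difference of -0.20 (adjusted p = 0.0333, limma). Both overlapped between the sexes and neither passed within a single bull. At the other end, UBE2V2, the inactive partner that lets UBE2N build lysine-63 chains, had equal means of 9.68 in both sexes, with a confidence interval of -0.16 to 0.16. UBE2C, which starts chains for the anaphase-promoting complex, had -0.11 (-0.22 to 0.00) and did not pass.

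**Figure D2:**
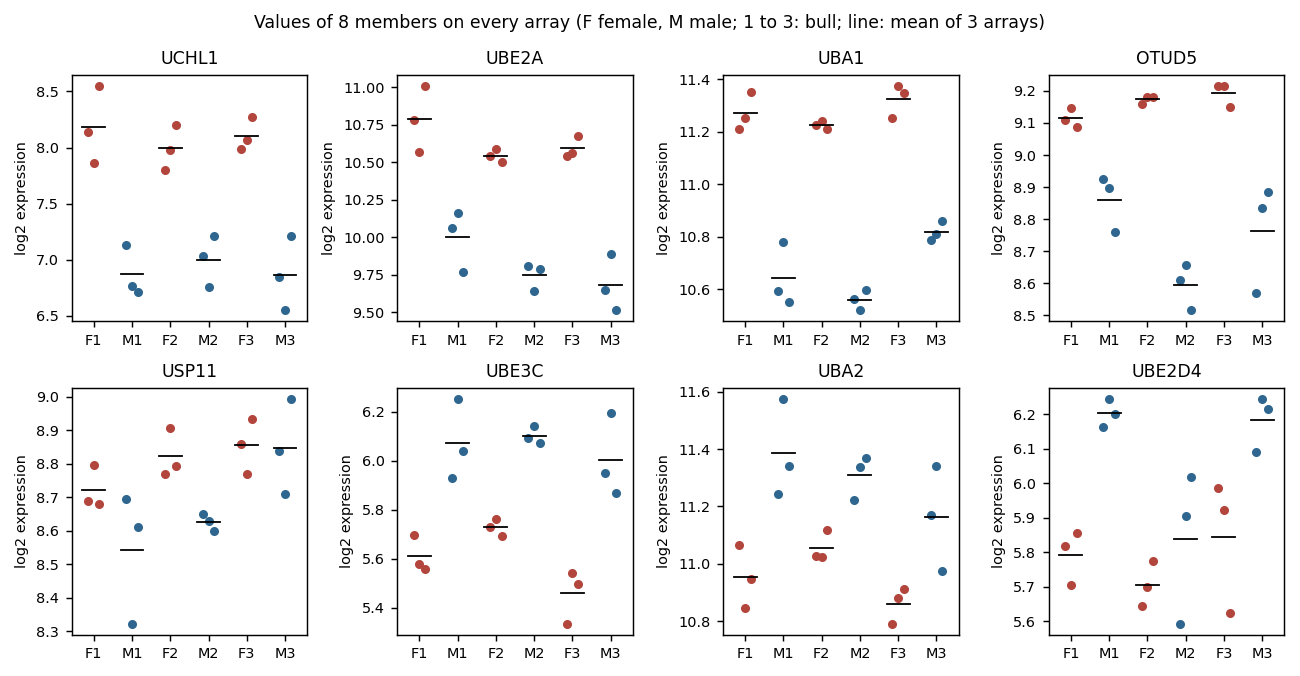
Log2 expression values (vertical axis, scaled separately in each panel) of 8 genes on all 18 arrays, by sex (F, M) and bull (1 to 3); points are arrays and lines the means of 3. The sexes do not overlap for UCHL1, UBE2A, UBA1, OTUD5 and UBE3C, whereas they overlap for USP11, UBA2 and UBE2D4.

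Of the 5 ligases, only UBE3C passed, and it was the gene with the largest difference to the male side. UBE3C, a HECT ligase that extends ubiquitin chains at the proteasome, ranged from 5.33 to 5.76 (median 5.58) in females and from 5.87 to 6.25 (median 6.07) in males. No female array reached the lowest male one, and the female values lay near the array medians of 5.33 to 5.49. Males were 1.38-fold higher, by -0.46 ± 0.06 log2 (female minus male, adjusted p = 2.44e-05, limma), with -0.46, -0.37 and -0.55 in bulls 1, 2 and 3. It passed within bulls 1 and 3, and in bull 2 it had an adjusted p of 0.0593 (limma).

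The U-box enzyme UBE4B, which lengthens chains, had the smallest sex difference of the ligases, at -0.08 (-0.20 to 0.04). UBE3B, a HECT ligase, did not pass on its brightest probe set (-0.10, adjusted p = 0.405, limma), but it has 6 probe sets, and a dimmer one was higher in females by 0.28 (adjusted p = 0.0259, limma). That dimmer probe set lay at 5.42 or below on all arrays, beside array medians of 5.33 to 5.49. The probe sets of UBE3B therefore disagree in sign, and no direction is given for it.

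Among the 27 USP genes, 6 passed, 2 higher in females and 4 higher in males. This is 22.2%, beside 20.8% of all genes. The median difference of the class was 0.02 log2. All 6 were changes of 0.26 log2 or less, and none passed within a single bull. USP19, which is anchored in the endoplasmic reticulum, had the largest excess in males of the class. It ranged from 7.90 to 8.12 (median 8.03) in females and from 8.13 to 8.55 (median 8.28) in males, so that the sexes met without overlapping. The difference was -0.25 ± 0.06 log2 or 1.19-fold (adjusted p = 0.00591, limma), at -0.21, -0.26 and -0.28 in the 3 bulls.

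USP46, which acts with the WD-repeat proteins WDR48 and WDR20, had -0.23 ± 0.05 log2 (adjusted p = 0.00438, limma), with females at 6.37 to 6.56 (median 6.43) and males at 6.50 to 6.78 (median 6.69). USP42, a deubiquitinase of p53, had -0.24 ± 0.06 log2 (adjusted p = 0.0089, limma), with females at 6.84 to 7.20 (median 6.99) and males at 7.13 to 7.56 (median 7.23). USP21, which acts on histone H2A, had -0.25 ± 0.07 log2 (adjusted p = 0.027, limma), with females at 7.11 to 7.56 (median 7.33) and males at 7.35 to 7.96 (median 7.47). In each of these genes the ranges overlapped and the male median was the higher. Dimmer probe sets of USP46 and USP42 did not pass (-0.06 and -0.04), whereas the second probe set of USP21 gave -0.25 and passed (adjusted p = 0.0473, limma) and another, dimmer one did not. The dimmer probe set of USP42 lay at 4.34 or below on all arrays, and the dimmest of USP21 at 3.40 or below. Both are under the array medians of 5.33 to 5.49.

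USP18 and USP28 were the 2 USP genes higher in females. USP18, which removes ISG15 and is induced by interferon, spanned 6.24 to 6.61 (median 6.45) in females and 5.83 to 6.59 (median 6.17) in males. The difference was 0.26 ± 0.08 log2 (adjusted p = 0.0414, limma), and its other 3 probe sets did not pass, with differences of -0.03, 0.13 and 0.02. USP28, known for stabilising MYC, spanned 6.94 to 7.39 (median 7.19) in females and 6.70 to 7.29 (median 6.93) in males. Its difference was 0.24 ± 0.07 log2 (adjusted p = 0.0253, limma), and its 2 dimmer probe sets gave 0.03 and -0.09. Both calls thus rest on 1 probe set, and each was lost whichever bull was left out. On all arrays the other probe sets lay at 5.10 or below for USP18 and at 3.95 or below for USP28. The array medians were 5.33 to 5.49, so that such dim probe sets say little for or against either call.

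USP11, a deubiquitinase of DNA repair, was the X-linked gene that did not pass. It ranged from 8.68 to 8.93 (median 8.79) in females and from 8.32 to 8.99 (median 8.65) in males, and the highest value of all was male. The difference was 0.13 (0.0018 to 0.25, adjusted p = 0.181, limma), at 0.18 and 0.20 in bulls 1 and 2 and 0.01 in bull 3. USP5, which takes apart free ubiquitin chains, had equal means of 8.77 in both sexes with an interval of -0.16 to 0.16. For USP14, a deubiquitinase of the proteasome, the brightest probe set gave 0.03 and a dimmer one -0.24 (adjusted p = 0.0297, limma), and for USP15 they gave -0.06 and 0.23 (adjusted p = 0.0222, limma), so that no direction is given for either. The same held for the conjugating enzyme UBE2G2, which serves degradation at the endoplasmic reticulum, at 0.11 and -0.29 (adjusted p = 0.00199, limma). The dimmer probe sets of USP14 and USP15 lay at 4.55 or below and 4.32 or below on all arrays. These values are under the array medians of 5.33 to 5.49.

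The UCHL and OTUD deubiquitinases had 3 of 5 members higher in females and none higher in males, beside 11.5% and 9.31% of all genes. The median difference, which in a class of 5 is the value of UCHL3, was 0.23 log2 over all bulls and 0.03, 0.37 and 0.30 in bulls 1, 2 and 3. UCHL1, known from neurons, germ cells and oocytes, had the largest difference of all 68 genes. On the female arrays it ranged from 7.80 to 8.55 (median 8.07), and on the male arrays from 6.55 to 7.21 (median 6.85). The lowest female array lay well above the highest male array. The difference was 1.18 ± 0.11 log2, or 2.27-fold (adjusted p = 3.25e-07, limma), and UCHL1 is autosomal, on chromosome 6.

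Within the bulls UCHL1 differed by 1.31, 0.99 and 1.24, and each difference passed (adjusted p = 0.00039, 0.00365 and 0.000594, limma). The female groups spanned 7.87 to 8.55, 7.80 to 8.20 and 7.98 to 8.27, and the male groups 6.71 to 7.13, 6.76 to 7.21 and 6.55 to 7.21. UCHL1 did not pass between any bulls. Markers of oocytes and sperm were read beside UCHL1, and no markers of neurons were read. Of the 6 oocyte genes, OOEP passed and was higher in females by 0.36. ZP2, ZP3, ZP4, GDF9 and BMP15 did not pass, with differences of 0.06 to 0.21 (adjusted p = 0.315 to 0.864, limma). Only 2 of the 6 lay above the median level of all probe sets. Among 5 sperm genes, females exceeded males in PRM1 by 1.73 (adjusted p = 1e-07, limma) and in TNP1 by 0.88 (adjusted p = 0.000188, limma). ODF2 and SPA17 were higher in males, at -0.25 and -0.28, and AKAP4 did not pass (-0.04). Their part in the difference of UCHL1 was not tested.

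OTUD5, an X-linked deubiquitinase of innate immune signalling, ranged from 9.09 to 9.22 (median 9.16) in females and from 8.52 to 8.93 (median 8.76) in males. The female arrays lay close together and above all males. The difference was 0.42 ± 0.05 log2 or 1.34-fold (adjusted p = 1.71e-05, limma), at 0.25, 0.58 and 0.43 in the bulls, and it passed within bulls 2 and 3. UCHL3, which trims ubiquitin and NEDD8 precursors, spanned 10.19 to 10.67 (median 10.30) in females and 9.74 to 10.50 (median 9.99) in males. Its difference of 0.23 ± 0.06 log2 (adjusted p = 0.0168, limma) was 0.37 and 0.30 in bulls 2 and 3 and 0.03 in bull 1. UCHL5, the deubiquitinase bound to the proteasome and to the INO80 complex, had -0.02 (-0.13 to 0.09).

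Read by the separation of arrays rather than by the model, 6 of the 68 genes had female and male arrays that did not overlap (UCHL1, UBE2A, UBA1 and OTUD5 upward in females, UBE3C and USP19 in males), beside 4.51% of all genes. Of the 51 genes that did not pass, 44 had a 95% confidence interval within 0.3 log2 on either side of 0. The median half-width of the interval was 0.13 log2, so that a change of the size of UBE2A or UBA1 would have stood out in most of them. The spread within groups was from 0.05 to 0.28 log2 among the 68 genes, with a median of 0.12, against 0.15 over all genes. The mean of 9 genes lay under the median of all probe sets, and none of these passed. The number of arrays limits this precision.

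The calls were not equally firm. UBA1, UBE2A, OTUD5, UCHL1, UBE3C and UBA2 passed without each bull, and each other enzyme was lost without at least 1 of them. UBE2D4 was lost without bull 1, USP19 without bull 2, UBE2H, UCHL3 and USP46 without bull 2 and without bull 3, UBE2Z without bull 1 and without bull 2, USP42 without bull 1 and without bull 3, and UBE2L3, USP18, USP21 and USP28 whichever bull was left out. Without a single array, UBE2Z was lost once (male bull 2 replicate 2, adjusted p = 0.0538, limma). USP21 was lost without female bull 1 replicate 1, female bull 2 replicate 1 or 2, female bull 3 replicate 3 or male bull 3 replicate 3, USP28 in 6 of 18 such fits, UBE2L3 in 8 and USP18 in 12. With bull as the replicate, UCHL3 (adjusted p = 0.0741, limma), UBE2H (0.0693), UBE2Z (0.0584) and UBE2L3 (0.0719) no longer passed. When all probe sets of a gene were averaged, USP18 (adjusted p = 0.271, limma), USP28 (0.405) and USP42 (0.121) were lost. Such means count dim and bright probe sets alike. Without the 4 arrays of wide spread, UBE2L3 was lost (adjusted p = 0.121, limma). USP18 was lost as well after quantile normalization (adjusted p = 0.0566, limma) and without moderation (0.0747). The lost calls kept their sign in all these fits.

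**Figure D3:**
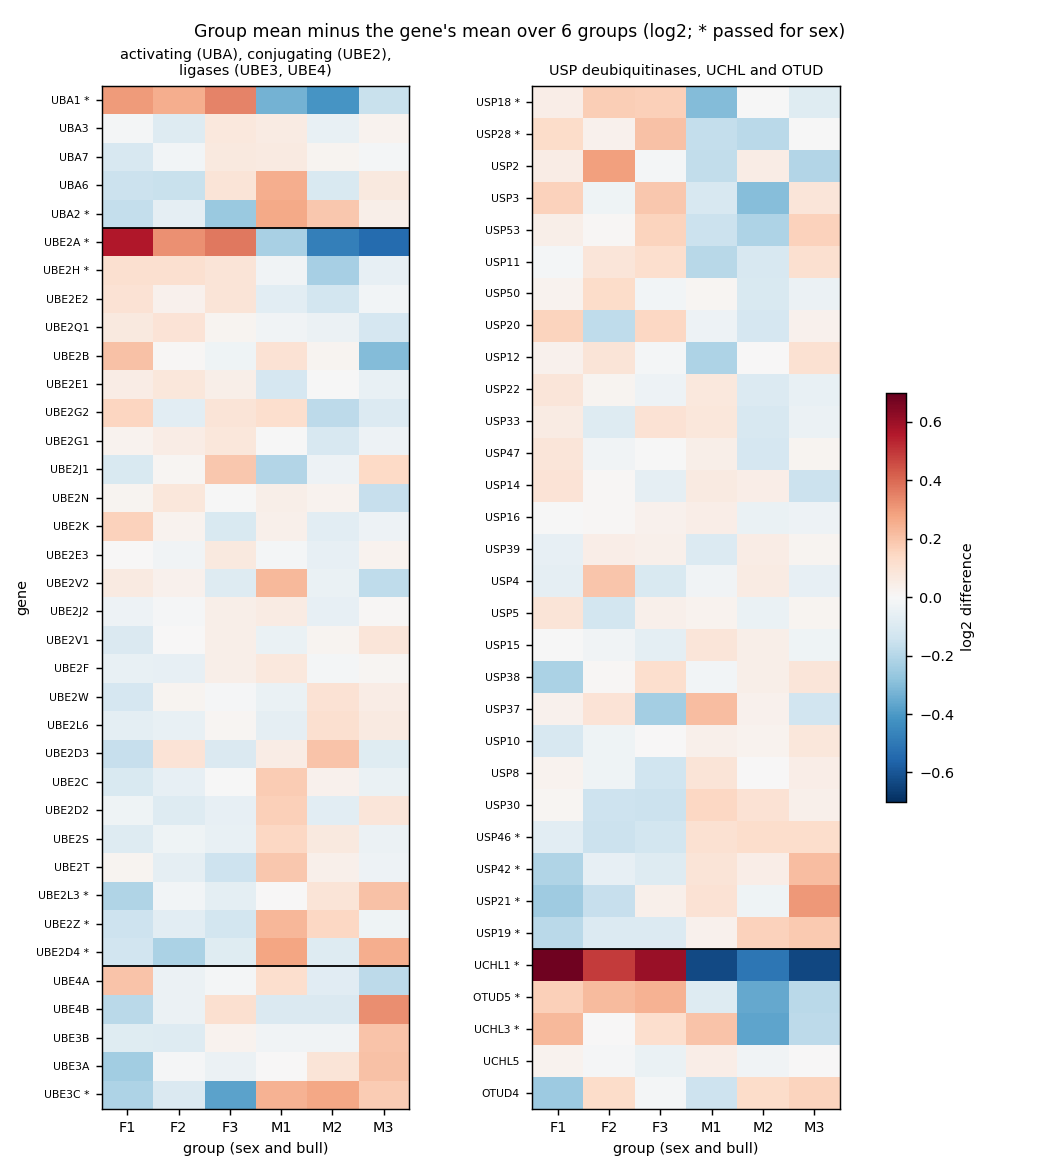
Mean of each group (F1 to F3 female and M1 to M3 male pools of bulls 1 to 3) minus the gene's mean over the 6 groups, in log2, for the 68 genes ordered by class and sex difference; red is above and blue below, and a star marks genes that passed for sex. UCHL1, UBE2A and UBA1 show opposite colours in all female and all male groups, and most other rows are pale.

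Position on the X chromosome was read next. Of the 4 X-linked enzymes, 3 were higher in females, beside 70% of all 297 X-linked genes measured. Of the 64 other enzymes, 14 passed, 5 higher in females and 9 in males, beside 19.1% of all autosomal genes (9.45% and 9.62%). Over the 6 groups the median offset of the X-linked enzymes was 0.23, 0.24 and 0.30 in the female pools of bulls 1, 2 and 3 and -0.21, -0.39 and -0.17 in the male pools. The median offset of the other enzymes stayed between -0.01 and 0.04 in all groups. Single ones ranged more widely, as UCHL1 did from 0.68 in the female pools of bull 1 to -0.64 in the male pools of bull 3.

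Each X-linked enzyme has autosomal relatives on the array, and the sex difference was compared within these pairs (exact permutation test within bulls, two-sided, 8000 arrangements, 6 pairs, Benjamini-Hochberg adjustment; chosen after the values were seen). The X-linked genes' own sex differences enter this test. UBE2A, UBA1 and OTUD5 were already known to separate the sexes without overlap. A small p for their pairs thus adds no support for those differences, and the values only describe the gap to the relative. UBE2B, or RAD6B, nearly identical to UBE2A in its protein, had a difference of 0.12 (-0.02 to 0.27), and UBE2A exceeded it by 0.71 log2 (adjusted exact p = 5e-04, from the smallest p that the arrangements allow). UBA1 exceeded UBA6 by 0.74 (adjusted exact p = 0.00075) and UBA7 by 0.64 (adjusted exact p = 5e-04). UBA7 had a mean of 4.92, under the array medians of 5.33 to 5.49, so that a sex difference of its own could be missed. OTUD5 exceeded OTUD4, which had -0.09, by 0.52 (adjusted exact p = 5e-04).

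These gaps had the same sign in each bull, from 0.63 to 0.81 for UBE2A against UBE2B and from 0.36 to 0.60 for OTUD5 against OTUD4. USP11 exceeded USP15 by 0.19 (adjusted exact p = 0.0396), at 0.26 and 0.27 in bulls 1 and 2 and 0.04 in bull 3. This call is bound to the brightest probe set of USP15, and the other, much dimmer one had the opposite sign. Against USP4, its other relative, the gap was 0.11 (adjusted exact p = 0.381). Where probe sets of such relatives share sequence, their signals may not be separate, which was not tested.

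The second question was whether the sex difference varied with the sire. Within bull 1, 6 enzymes passed (UBA1, UBE2A and UCHL1 higher in females, UBA2, UBE2D4 and UBE3C higher in males), beside 6.03% of all genes (4.25% higher in females and 1.78% in males). Within bull 2, 4 passed, all higher in females (UBA1, UBE2A, UCHL1 and OTUD5), beside 4.59% (3.71% and 0.874%). Within bull 3, 5 passed, the same 4 and UBE3C, beside 5.92% (4.29% and 1.63%). UBA1, UBE2A and UCHL1 passed in all 3 bulls, and 7 enzymes passed in at least 1.

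No enzyme passed the test of an interaction between sex and bull (limma F test with Benjamini-Hochberg adjustment), nor did any of the 24016 probe sets, of which 2.73% had an unadjusted p under 0.05. Of the enzymes, 1 had such an unadjusted p: USP12, a relative of USP46, had sex differences of 0.25, 0.09 and -0.12 in bulls 1, 2 and 3 (unadjusted p = 0.034 and adjusted p = 1, limma). OTUD5 and UBE2C followed, with unadjusted p of 0.0655 and 0.0683 (limma). For UBE2C the differences were -0.28, -0.09 and 0.04. A call in one bull and not in another, as for OTUD5 and UBE3C, is therefore not shown to be a difference between bulls.

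**Figure D4:**
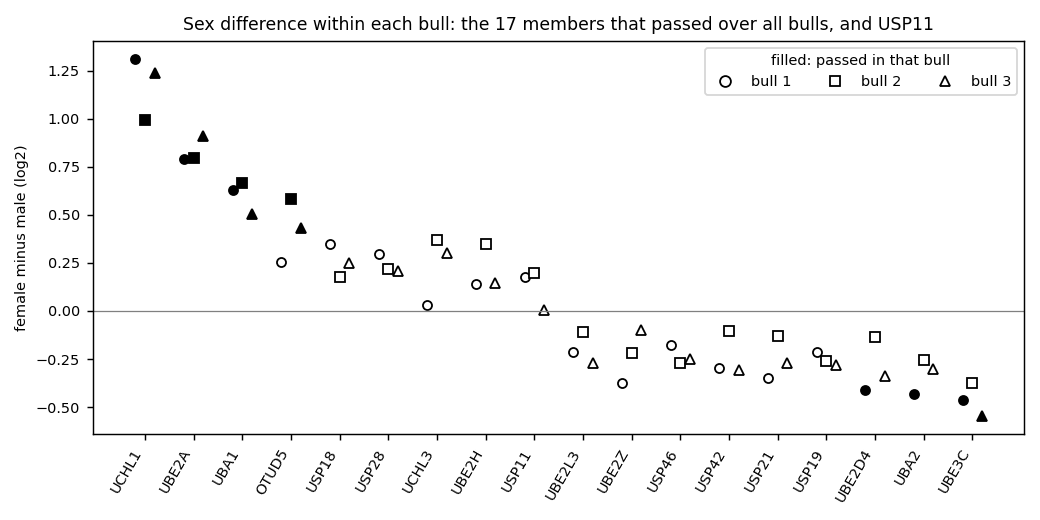
Sex difference (female minus male, log2, vertical axis) within bull 1 (circles), bull 2 (squares) and bull 3 (triangles) for the 17 genes that passed over all bulls and USP11; filled symbols passed within that bull. All symbols of a gene lie on the same side of 0, UCHL1, UBE2A and UBA1 are filled in every bull, and UCHL3 and USP11 come closest to 0 in bulls 1 and 3.

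The third comparison was between sires, averaged over the sexes. Few enzymes differed: 1 between bulls 2 and 1, 3 between bulls 3 and 1, and 1 between bulls 3 and 2, beside 2.04%, 3.6% and 3.33% of all genes. In the first pair 0.557% of all genes were higher in bull 2 and 1.49% lower; in the second 1.37% were higher in bull 3 and 2.24% lower; and in the last 1.9% were higher in bull 3 and 1.43% lower. UCHL3 was lower in bull 2 than in bull 1, with values of 9.74 to 10.27 (median 10.09) against 10.20 to 10.67 (median 10.44). The ranges overlapped at their ends. The difference was -0.40 ± 0.08 log2 (adjusted p = 0.0179, limma), and it no longer passed without male bull 2 replicate 1 (adjusted p = 0.051, limma) or without the 4 arrays of wide spread (adjusted p = 0.0823, limma).

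UBE4B was higher in bull 3. Its 6 arrays of bull 3 lay at 7.75 to 8.12 (median 7.81), above all arrays of bull 1, at 7.34 to 7.71 (median 7.47), and of bull 2, at 7.50 to 7.62 (median 7.58). The differences were 0.36 against bull 1 (adjusted p = 0.00874, limma) and 0.29 against bull 2 (adjusted p = 0.0236, limma). UBE2B was lower in bull 3 than in bull 1, at 9.82 to 10.42 (median 10.29) against 10.35 to 10.77 (median 10.52), a difference of -0.32 (adjusted p = 0.0421, limma). UBE4A, the U-box relative of UBE4B, was also lower there, at 7.18 to 7.60 (median 7.33) against 7.46 to 7.76 (median 7.61), a difference of -0.25 (adjusted p = 0.041, limma). Of the 18 fits without 1 array, the call of UBE2B was lost in 13, that of UBE4A in 14 and that of UBE4B against bull 2 in 7.

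An index of transcript ends moved with the bulls. The 5′ minus 3′ signal of 3 control transcripts (actin, elongation factor 1 alpha and glyceraldehyde-3-phosphate dehydrogenase), which falls when amplified RNA is short, averaged -0.10 in bull 1, -0.25 in bull 2 and -0.69 in bull 3. It averaged -0.35 in both sexes. With this index as a covariate, the difference of UBE4B stayed at 0.37 against bull 1 but did not pass (adjusted p = 0.393, limma), and no enzyme passed between bull 3 and either other bull. The index and the sire cannot be told apart in these arrays.

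**Figure D5:**
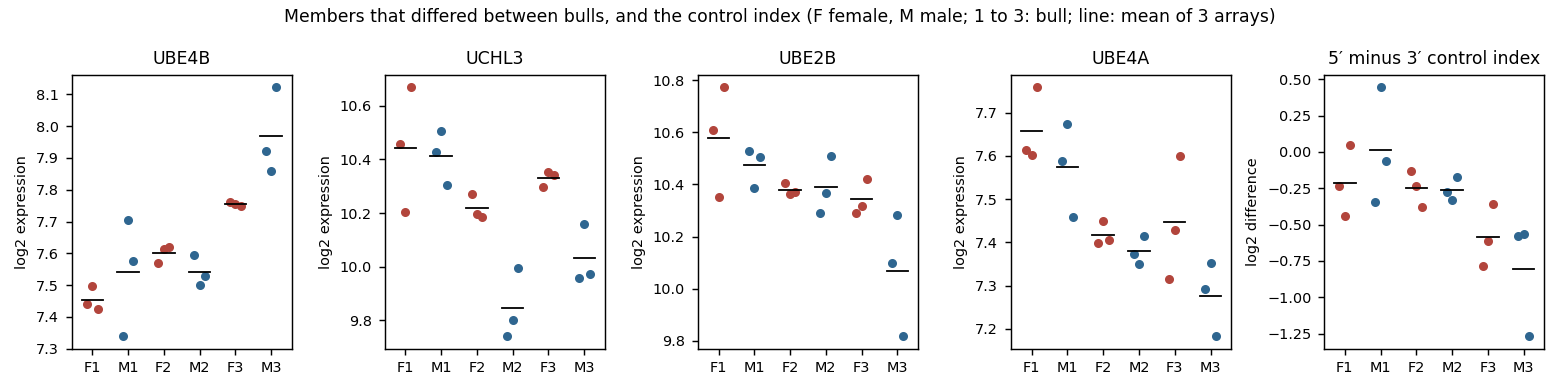
Log2 expression values of the 4 genes that differed between bulls and, in the last panel, the 5′ minus 3′ control index (log2 difference), on all 18 arrays by sex (F, M) and bull (1 to 3); lines are means of 3 arrays and vertical scales differ between panels. UBE4B is highest in bull 3 in both sexes, UCHL3 is lowest in the male pools of bull 2, and the index is lowest in bull 3.

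Genes of the same pathway outside the enzyme set were read from 9 lists with 188 genes, of which 121 were measured. Of the 121 genes, 26 passed for sex, 12 higher in females and 14 in males, or 21.5% beside 20.8% of all genes, with a median difference of -0.02 log2. The 8 X-linked genes among them had 6 that passed with higher values in females, beside 70% of all X-linked genes. The exceptions, RLIM (-0.13) and XIAP (0.05), named after their values were seen, did not pass. The 113 others had 6 that were higher in females and 14 in males, or 17.7%, beside 19.1% of all autosomal genes. The single lists below hold 11 to 23 measured genes each. Their counts stand beside 11.5% of all genes higher in females and 9.31% higher in males.

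The ubiquitin-like modifiers had 2 of 11 genes higher in females and 1 higher in males. MAP1LC3A, an autophagosome protein, was 1.61-fold higher in females, by 0.69 log2 (adjusted p = 1.93e-06, limma), and SUMO3 was higher by 0.25 (adjusted p = 0.00372, limma). URM1, a modifier that also serves transfer RNA thiolation, was higher in males, at -0.25 (adjusted p = 0.0172, limma). UBA2 thus stood higher in males and SUMO3, one of the modifiers it charges, higher in females. Of 16 enzymes of the ubiquitin-like modifiers, only the X-linked ATG4A, a protease of autophagy, passed, at 0.30 (adjusted p = 0.000786, limma).

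Among the ligases outside the set, 3 of 18 cullin-RING genes passed, or 16.7% beside 20.8% of all genes, and these 3 were higher in males. CUL7 had -0.47 log2 or 1.39-fold (adjusted p = 8.14e-05, limma), and CUL2 and the F-box protein FBXL5 had -0.18 and -0.23. The HECT ligases had 1 of 11 higher in females and 3 higher in males. HUWE1, an X-linked HECT ligase of MYC and p53, was higher in females by 0.45 (adjusted p = 7.46e-05, limma), without overlap between its female arrays (8.85 to 9.02) and male arrays (8.25 to 8.79). WWP2 and HERC4 were higher in males, at -0.33 and -0.23. Of 23 RING and U-box ligases, 3 were higher in females, with MKRN1 at 0.32, the X-linked MID1 at 0.41 and SIAH2 at 0.31, and 1 was higher in males.

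The list of other deubiquitinases and related proteins had 4 of 19 genes higher in females and 2 higher in males. CYLD, which cuts lysine-63 and linear chains, was higher by 0.29 (adjusted p = 0.00327, limma), the X-linked BRCC3, a lysine-63 deubiquitinase of the BRCA1-A complex, by 0.40 (adjusted p = 0.00538, limma), and MINDY2 was higher in males, at -0.30 (adjusted p = 0.00248, limma). The shuttles that carry ubiquitinated proteins to the proteasome, and their partners, had 1 of 11 higher in females and 3 higher in males. That one, the X-linked UBQLN2, had the smallest p of the 121 genes, at 0.98 log2 or 1.97-fold (adjusted p = 1.49e-09, limma). Its female arrays spanned 10.11 to 10.59 and its male arrays 9.10 to 9.58, and the difference was 1.02, 0.96 and 0.96 in the 3 bulls. UFD1 and UBXN1 were higher in males by small amounts (-0.18 and -0.20). The anaphase-promoting complex, for which UBE2C works, had 1 of 12 genes pass, ANAPC7 at -0.22, higher in males. The other genes that passed fell outside the naming rule and were named after their values were seen. The X-linked ALG13 (0.62) and OTUB2 (0.27), from the list of deubiquitinases and related proteins, were higher in females. COPS6 (-0.22), from the same list, ITCH (-0.24), MDM2 (-0.28) and UBQLN4 (-0.25) were higher in males.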

How the data were processed

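Per the labels, RNA of 18 pools of blastocysts was amplified and hybridised to Affymetrix bovine arrays. The authors deposited log2 expression values per probe set, a scale inferred from their range. RMA and Partek 6.4 are named in the submitters' processing notes, with no role for either. RMA makes array distributions alike, which hides any shift common to all transcripts. No source used here gives a scan date or batch, arrays give no read depth, and no detection calls were used.

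Of 24128 probe sets, 112 array controls were left out. The platform annotation lists 1 gene for 13292, several for 86 and none for 10638 of the rest. Current symbols and chromosomes came from an ARS-UCD2.0 gene table, matched on gene number (13263 matched, 29 did not). The enzymes and the gene lists were chosen with earlier results of these data known.

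All 24016 probe sets were fitted with a mean for each of the 6 groups (R 4.3.3 and limma 3.58.1, with 12 residual degrees of freedom and moderated variances). Within each contrast Benjamini-Hochberg adjustment ran over all probe sets, and an adjusted p under 0.05 counted as passing. A fold is 2 raised to the absolute log2 difference. The steps were tested on simulated data.

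Genes were named by a rule: X-linked enzymes and their autosomal relatives, the 12 largest passing differences per direction for sex, 5 per direction and pair of bulls, the 3 smallest interaction p, the smallest sex difference of each class, enzymes whose probe sets disagree, and 3 genes per pathway list. The same-numbered samples of the groups were checked for pairing, and the numbers did not pair them. Alternatives were a filter on dim probe sets, quantile normalization, an intensity trend, array weights, no moderation, 1 probe set per gene, the mean over or each of a gene's probe sets, a replicate block, an additive model, bull as the replicate, the 5′ to 3′ index, each bull, each array or the 4 wide arrays left out, and a threshold of 0.01. Figures were drawn with matplotlib.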

Additional observations from a re-analysis of the deposited data

Results flagged for a closer look

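Among 82 sets of arrays of 1 sex or 1 bull, read for the enzymes named above, 5 held a single array that lay far from the nearest other one relative to the range of the set (Dixon's test at 95%), where chance gives about 1 in 20. For USP42, male bull 3 replicate 3 had a log2 value of 7.556, with the nearest male array at 7.307. For USP5, female bull 1 replicate 3 had 9.225, with the nearest female at 8.88. USP15 had a high array in each sex: female bull 1 replicate 1 had 8.509 against 8.331, and male bull 1 replicate 2 had 8.593 against 8.418. For USP14, male bull 3 replicate 3 had 9.856, with the nearest male at 10.2. Of these arrays, all but female bull 1 replicate 1 are among the 4 of wide spread.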

How the results depend on the processing

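UBA1, UBE2A, OTUD5, UCHL1, UBE3C and UBA2 passed for sex in every fit over several bulls, and 12 of the 17 enzymes passed in all 18 fits without 1 array. From the 6 arrays of a single bull, only 3 enzymes passed in bull 1, 5 in bull 2 and 4 in bull 3. Of the 18 fits without 1 array, USP18 was lost in 12, UBE2L3 in 8, USP28 in 6, USP21 in 5 and UBE2Z in 1. The count for sex was 14 to 19 without 1 array (6 to 9 higher in females, 7 to 10 in males) and 10, 8 and 9 without bulls 1, 2 and 3. The latter counts use fewer arrays, with 4 higher in females without bull 2 or 3, and 4, 4 and 5 higher in males. At a threshold of 0.01 it was 10, with 4 in females. With a replicate block of same-numbered samples it was 16 (USP18 lost, adjusted p = 0.052, limma), and 1 between bulls 3 and 1. Correlations of same-numbered pairs had a median of 0.0014, and the numbers did not pair the arrays. Within bull 1, 3 passed at 0.01 and from its 6 arrays alone, and 3 to 7 without 1 array. Within bull 2, 7 passed among the brighter 50% of probe sets, after quantile normalization or with 1 probe set per gene, 9 with array weights, and 4 to 5 without 1 array. Within bull 3, 10 passed with array weights and 4 to 6 without 1 array. Between bulls 2 and 1, 4 passed among the brighter 50% or with array weights, 2 after quantile normalization, with an intensity trend, without moderation or with 1 probe set per gene, 0 without the 4 wide arrays or at 0.01, and 0 to 2 without 1 array. Between bulls 3 and 1, 5 passed with the trend, 7 with array weights, 0 with the index, 1 at 0.01 or without bull 2, and 1 to 7 without 1 array. Between bulls 3 and 2, 2 passed among the brighter 50%, after quantile normalization, with the trend or without moderation, 5 with array weights, 0 with the index or at 0.01, 3 without bull 1, and 0 to 2 without 1 array. The median of the USP genes was 0.00087 without bull 3 and 0.01654 to 0.03655 without 1 array. Other, dimmer probe sets reversed the sign for USP18 (-0.035), USP28 (-0.091), USP15 (0.23), UBE3B (0.28), UBE2G2 (-0.29) and USP14 (-0.24). The cause of these changes was not tested.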
